A study of Homo sapiens with 2 samples.

Results

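Calnexin (CANX) and 9 other endoplasmic reticulum (ER) chaperones and folding enzymes, CALR, HSPA5, HSP90B1, PDIA3, PDIA4, PDIA6, P4HB, CALU and UGGT1, were followed through a map of RNA bound by Flag-tagged RBM47. Their rows were found by gene symbol, from a list drawn up with earlier results of these data known, and all 10 were found among the 7712 genes with at least 1 deposited cluster of RBM47 tags. Together they held 214 of the 233546 deposited clusters, of which 174 had at least 10 tags. A tag is a unique sequenced fragment, and a cluster is a stretch of overlapping tags.

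The cells were MDA231-BrM2a, a non-clonal population derived from the human breast cancer line MDA-MB-231 that forms brain metastases. They carried wild-type Flag-RBM47 under a doxycycline-inducible promoter, which was induced in both replicates with doxycycline at 1 ng/ml over 3 days. HITS-CLIP fixes proteins to bound RNA with ultraviolet light and sequences the fragments recovered with the tagged protein. The design has 1 group of 2 replicates, so no conditions were compared, and no control library was analysed here. The transgene sets the RBM47 level, so the values describe binding by induced, tagged protein.

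The ER folds secreted and membrane proteins. HSPA5 (BiP) and HSP90B1 (GRP94) are its Hsp70 and Hsp90 chaperones. CANX, a membrane protein, and CALR (calreticulin), its soluble relative, hold glycoproteins that carry a trimmed sugar chain. PDIA3 works with this pair, and UGGT1 marks unfolded glycoproteins for another round. PDIA4, PDIA6 and P4HB are protein disulfide isomerases, and P4HB is also a subunit of prolyl 4-hydroxylase. CALU (calumenin) is a calcium-binding protein of the secretory pathway.

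In 9 of the 10 genes, all except HSPA5, 1 cluster of at least 10 tags was labelled as both coding sequence (CDS) and 3'UTR. Over all 5600 genes with a cluster of at least 10 tags, 1948 clusters were so labelled. The share among genes with a like number of tags was not computed. Where a single transcript model gives both labels, such a cluster crosses the stop codon. The bases around the stop codon are shown for the 5 genes with the most tags per kb of mRNA, because in CANX most tags fell in this cluster. They were read from GENCODE canonical transcripts, 5′ to 3′, with the stop codon in capitals.
CANX: ccacgaagagagTGAaacaatcttaagagc
CALU: catgatgagttcTGAgctacggaggaaccc
PDIA6: aaagatgagttgTGAgagccacaacagagg
HSP90B1: aaagatgaattgTAAattatactctcacca
CALR: aaggacgagctgTAGagaggcctgcctcca
In PDIA6, HSP90B1 and CALR the bases before the stop codon encode the KDEL retention signal of soluble ER proteins.

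The 30-base stretch richest in T (U in the RNA) within the annotated 3'UTR is shown for CANX, which had the most tags, and for P4HB, whose 3'UTR had the lowest T content of the 10 genes. The longest run of T is in capitals.
CANX: taacTTTTTTTTTTTTaacatctttgtttt
P4HB: cccgtctcttccttctgcttttcggTTTTT
These windows held 21 and 16 T, against a median of 20 over the matched genes. They began 259 and 165 bases into the 3'UTR. The clusters are placed on another genome build (hg18) than the transcripts, so whether a window lies inside a cluster was not tested.

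All 10 genes had more than 100 tags in clusters of at least 10 tags, a level that 39.9% of all genes with a cluster reached. CANX dominated with 24793 tags, at rank 4 of all genes. The tags per 1000 tags of the replicate, over its sum of all deposited clusters, were 5.06 for CANX in replicate 1 and 5.66 in replicate 2 (5.36 ± 0.423, SD, n = 2). CALU followed at rank 44 with 6305 tags, or 1.32 and 1.43 per 1000 tags. CANX took 64.5% of the 38459 tags of the 10 genes (64.2% ± 0.514, SD, n = 2), and CANX and CALU together took 80.9% (80.7% ± 0.249). RNA levels were not measured here, so stronger binding and more RNA cannot be told apart for any gene.

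The isomerases and the Hsp chaperones had far lower sums, which are not set per length here. HSP90B1 had 1750 tags (364 in replicate 1 and 1388 in replicate 2), and PDIA6 had 1555 (336 and 1219). UGGT1 had 1379 (291 and 1101) and CALR 851 (184 and 672). PDIA4 had 725 tags, HSPA5 424, PDIA3 367 and P4HB 310. HSPA5 stood at rank 1456 of the 5600 genes with a cluster of at least 10 tags. The median over the 10 genes was 1115 tags, beside 127 over all such genes.

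Long mRNAs offer more room for binding, so levels were compared per kb of annotated mRNA. In tags per 1000 tags of the replicate and per kb of mRNA, CANX had 1.09 ± 0.086 (SD, n = 2) and CALU 0.261 ± 0.0143. PDIA6 had 0.15 ± 0.00403, HSP90B1 0.137 ± 0.00849 and CALR 0.0991 ± 0.00312. PDIA4 had 0.0556 ± 0.00758. UGGT1, which has the longest mRNA at 10761 bases, had 0.0282 ± 0.00159. P4HB had 0.0268 ± 0.00419, HSPA5 0.0239 ± 0.00138 and PDIA3 0.0222 ± 0.000279. The replicate values of UGGT1 and P4HB overlapped, as did those of P4HB and HSPA5, and every other pair of neighbours in this order was separate. P4HB and HSPA5 were separate when sums over clusters of at least 10 tags were the denominator. With 2 replicates a gene, the exact two-sided permutation test cannot go below p = 0.333, so no pair was tested. CALR and HSPA5, both major calcium-binding proteins of the ER lumen, differed in level per kb by more than the replicates did.

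**Figure D1:**
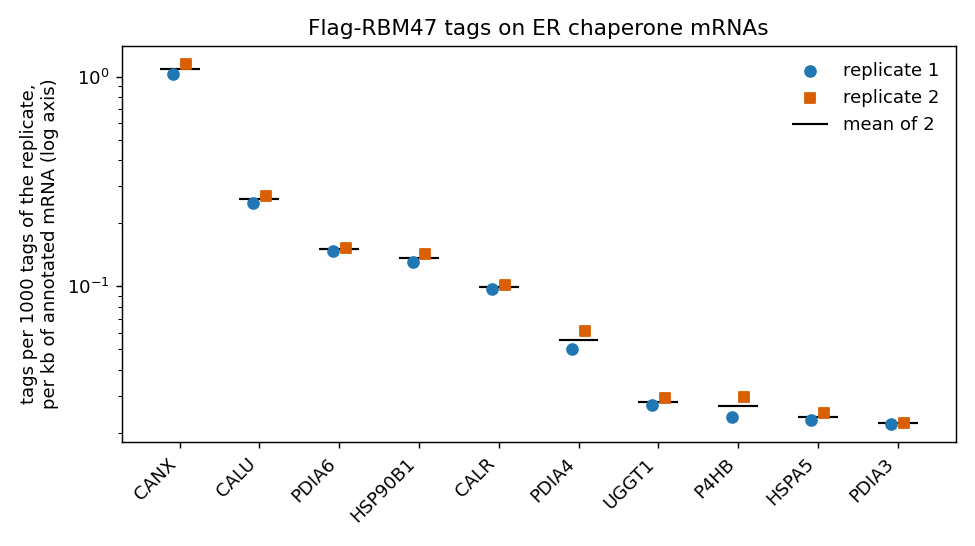
Tags per 1000 tags of the replicate and per kb of annotated mRNA (log axis) for the 10 ER chaperone genes, with a point for each replicate and a line at the mean of 2. CANX stands at 1.09 and CALU at 0.261, and the last 4 genes lie between 0.0222 and 0.0282.

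The same order at the top held per kb of bound sequence. CANX had 5022 tags per kb of cluster length, at rank 8 of all genes, and CALU had 1299, at rank 47. PDIA6 had 834 and HSP90B1 780. CALR had 475 and PDIA3 459, and the remaining 4 genes lay between 210 and 346. All 10 were above the median of 164 over all genes, and the median of the 10 was 467.

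Clusters of at least 10 tags added up to 4937 bases in CANX, against an annotated mRNA of 4915 bases. As a share of the annotated mRNA the sum was 94.2% in CALR, 92.2% in CALU, 81.8% in PDIA6 and 80.6% in HSP90B1. It was lowest in PDIA3, at 21.7%, followed by HSPA5 at 44%. The median of the 10 genes was 78.2%, beside 53% over the 888 matched genes with at least 300 tags and no intron tags. These figures set cluster lengths against transcripts of another build and are approximate.

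Nearly all tags lay in clusters with an exon label. No cluster of at least 10 tags in the 10 genes was labelled intron alone, whereas 38.5% of such clusters in all genes, holding 18.6% of tags, were. With no minimum, 5 intron clusters appeared in HSP90B1, PDIA6, CALU and UGGT1, with 33 tags in all and at most 8 in a cluster. Among the 1830 genes with at least 300 tags, 898 (49.1%) also had no intron tags. Each gene's clusters lay on 1 strand.

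Clusters whose label included 3'UTR held 81.8% of the 10 genes' tags (82.1% ± 0.745, SD, n = 2), beside 63.1% over all genes. This figure rested on CANX and CALU. In the other 8 genes it was 52.2% (52.8% ± 1.16), and CDS alone held 45.6% (45.2% ± 0.835), beside 10.2% over all genes. By number, 100 of the 174 clusters (57.5%) were CDS alone, beside 15.9% over all genes. These CDS clusters had a median of 29.5 tags, beside 16 over all genes. The shares over all genes include intron-alone clusters (38.5% by number), of which the members had none of at least 10 tags. No share over genes without such clusters was computed.

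The genes ran from nearly all 3'UTR in CALU to mostly CDS in HSP90B1. The share of tags in clusters that included 3'UTR was 93.6% ± 0.646 in CALU, 88% ± 0.758 in CANX, 82.5% ± 1.98 in PDIA6 and 72.9% ± 0.0546 in PDIA3 (mean of the replicates ± SD, n = 2). It was 63.6% ± 2.37 in UGGT1, 57.2% ± 4.38 in P4HB, 50.1% ± 0.675 in PDIA4 and 44.1% ± 0.929 in CALR. HSPA5 had 33% ± 4.29 and HSP90B1 22.5% ± 1.23. BiP and GRP94, the Hsp chaperones, had the lowest shares, and their CDS clusters took 65.3% and 78.0% of their tags. The annotated 3'UTR is short in HSP90B1, at 264 bases, but not in HSPA5, at 1739.

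**Figure D2:**
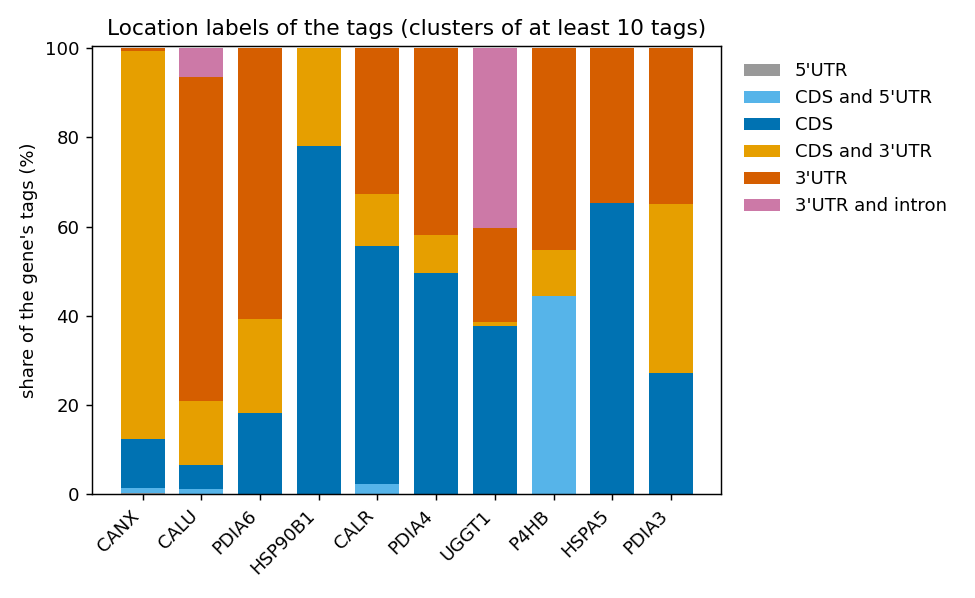
Share of each gene's tags (%) by the location label of the cluster, for clusters of at least 10 tags. The CDS and 3'UTR label fills most of CANX, 3'UTR alone most of CALU and PDIA6, and CDS most of HSP90B1 and HSPA5.

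CANX owed its rank to a single cluster. It lay at chr5:179088191-179090605 (hg18, + strand), 2414 bases labelled CDS and 3'UTR, and held 21607 tags, 4453 in replicate 1 and 17154 in replicate 2. That was 87.1% of the CANX tags (87.5% ± 0.855, SD, n = 2). The other CANX clusters held 3186 tags. Among the 1948 clusters of all genes labelled CDS and 3'UTR it had the most tags, where the median was 29 tags and 160 bases. Of the 2065 genes with at least 10 clusters, CANX had the highest share in its largest cluster, where the median share was 16.9%. Shares about as high occurred in other genes, with 87.6% in ELOVL5 and 87.2% in ITM2B, so the trait is not particular to CANX.

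Tag density was far lower past this cluster. The next one began 2 bases on, and the 5 later 3'UTR clusters, which reached 655 bases further, held 125 tags in all. Per kb, the large cluster had 8951 tags and the later ones 254, a ratio of 35.3 (39.4 ± 8.56, SD, n = 2). The coding part of CANX was bound throughout. Its 12 clusters labelled CDS held 38 to 533 tags, at 295 to 2587 tags per kb, and 1 more at the start of the coding sequence, labelled CDS and 5'UTR, held 311. The large cluster was 5.72 times denser than the CDS clusters (5.8 ± 0.185).

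The densest CANX coding cluster, at chr5:179069464-179069670, had 533 tags (112 in replicate 1 and 421 in replicate 2). The sparsest, at chr5:179084261-179084390, had 38 (9 and 29). The first exon gave a 5'UTR cluster of 50 tags (6 and 44). All 3 had more tags in replicate 2, the larger library.

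CALU also had its tags in the 3'UTR, but over 3 adjoining clusters. They held 900, 2092 and 2481 tags from chr7:128196302 to 128199099 (+ strand), or 86.8% of the CALU tags (87.4% ± 1.51, SD, n = 2) at 1964 tags per kb. The largest had 550 tags in replicate 1 and 1931 in replicate 2. Past them, 7 clusters labelled 3'UTR and intron held 11 to 154 tags, 414 in all. The 4 CDS clusters held 36 to 132 tags.

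PDIA6 showed the same layout at a lower level. Its 3'UTR cluster at chr2:10840956-10841612 (- strand) held 944 tags (213 and 731), or 60.7% of the gene's tags. The cluster next to it, labelled CDS and 3'UTR, held 327 (69 and 258). Its 9 CDS clusters held 14 to 61 tags.

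HSP90B1 was bound along its coding sequence. Its 18 CDS clusters held 10 to 178 tags, the largest at chr12:102859323-102859456 (48 and 130 tags). The 1 cluster that included 3'UTR, at chr12:102865546-102865837 (+ strand), held 385 tags (85 and 300), or 22.0% of the gene's tags. HSP90B1 has processed pseudogenes, and how tags that map to several places were treated is not given in the sources used here, so its counts are uncertain. The same holds for any other member with such copies, including those with few tags, and which members have them was not checked.

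HSPA5 was sparse throughout, with 10 CDS clusters of 10 to 73 tags and 6 3'UTR clusters of 10 to 47. Its largest cluster was coding, at chr9:127040235-127040335 (- strand), with 73 tags (23 and 50). CALR divided its tags, with 9 coding clusters of 11 to 106 tags and its largest cluster at the far end of the 3'UTR, chr19:12916205-12916331 (+ strand), with 176 tags (42 and 134).

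In PDIA4, 1 cluster of the 3'UTR, at chr7:148331459-148331713 (- strand), held 269 tags (57 and 212), or 37.1% of the gene's tags. In PDIA3 the cluster labelled CDS and 3'UTR, at chr15:41850703-41850915 (+ strand), held 139 tags (26 and 113), or 37.9%. The other clusters of PDIA3 held 15 to 94 tags. In both genes the largest cluster was the one labelled CDS and 3'UTR or the one next to it.

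UGGT1 and P4HB had no dominant cluster. UGGT1 had 48 clusters of at least 10 tags, and its largest, at chr2:128668621-128669060 (+ strand), held 100 tags (23 and 77), or 7.25%. Its 27 CDS clusters held 11 to 33 tags, and 13 clusters labelled 3'UTR and intron held 555 tags together. P4HB had 12 clusters of 10 to 56 tags. Of these, 6 spread over 12823 bases were labelled CDS and 5'UTR, so its labels may draw on several transcript models, and its coding share could not be set apart.

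**Figure D3:**
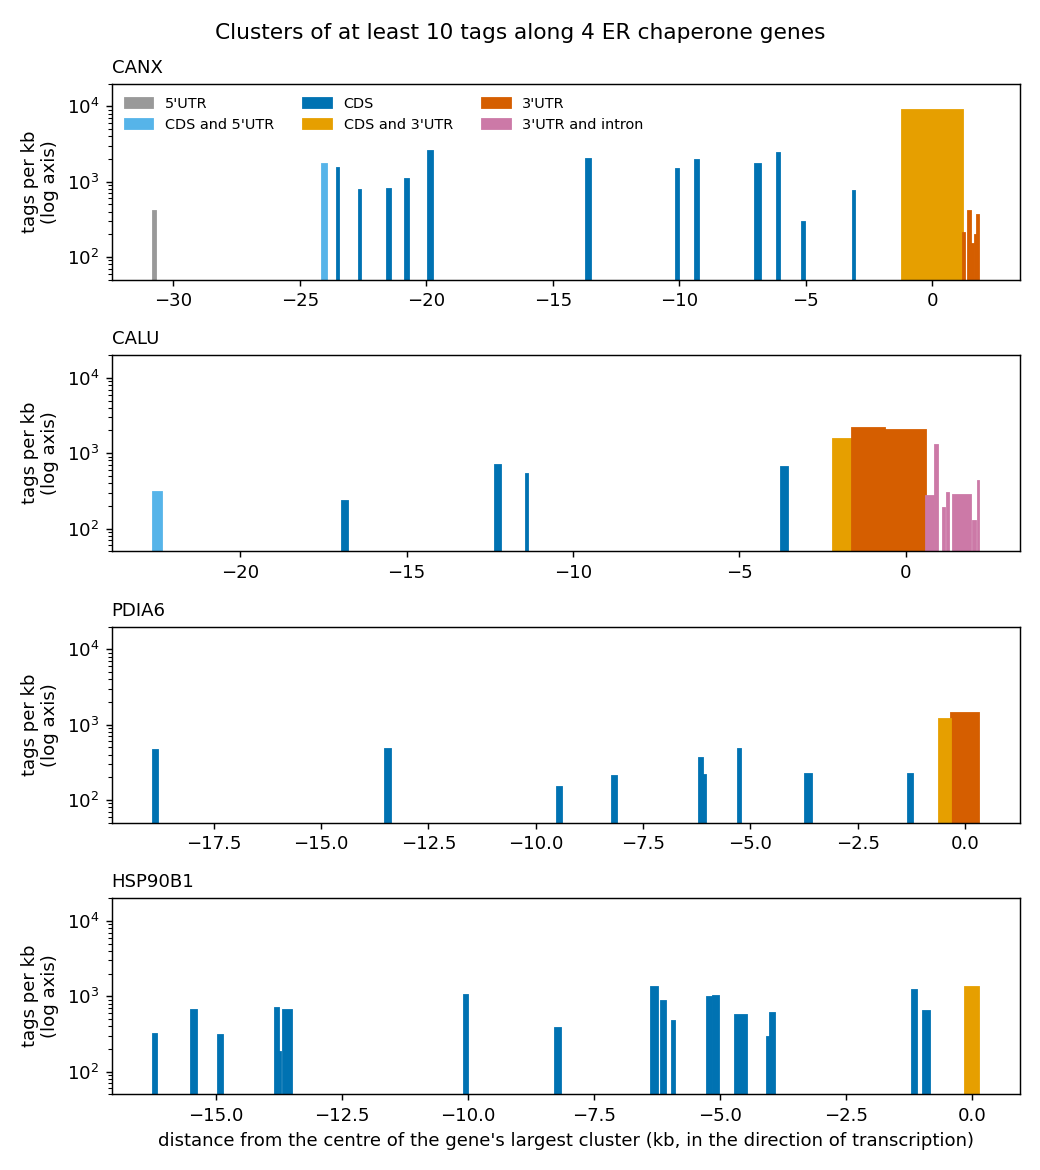
Clusters of at least 10 tags along CANX, CALU, PDIA6 and HSP90B1, with height in tags per kb of cluster (log axis) and position in kb from the centre of the gene's largest cluster in the direction of transcription. Each bar is the mean over its cluster, so changes within a cluster are not shown. Clusters past the CANX cluster of 8951 tags per kb are far lower, and CALU and PDIA6 peak in the 3'UTR. In HSP90B1 several CDS clusters are about as high as the one that includes 3'UTR.

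The ratio of 3'UTR to CDS tag density sets parts of the same gene against each other, to lessen the effect of the mRNA level. How far it does so was not tested. Because clusters below the tag minimum were left out, the ratio may still depend on that level in genes with few tags. The 3'UTR side may also hold coding bases, from clusters labelled CDS and 3'UTR. Clusters that included 3'UTR were set against clusters labelled CDS alone, per kb of cluster. CANX had a ratio of 4.78 (4.84 ± 0.149, SD, n = 2), at rank 34 of 1252 genes, and PDIA6 4.46 (4.75 ± 0.65), at rank 47. CALU had 2.85 (2.95 ± 0.21), PDIA4 2.38 (2.35 ± 0.0634) and HSP90B1 1.89 (1.95 ± 0.137). UGGT1 had 1.38 (1.47 ± 0.15) and CALR 1.18 (1.17 ± 0.042). PDIA3 had 0.988 (0.994 ± 0.00274) and HSPA5 0.699 (0.654 ± 0.126), at rank 1238.

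Over all 1252 genes the median ratio was 1.73, the 10th percentile 1.02 and the 90th 3.3, and 90.8% of genes lay above 1. Of the 9 members with a ratio, 7 lay above 1 and 5 above the median of all genes, and the members' own median was 1.89. On this measure CANX and PDIA6 lay past the 90th percentile and PDIA3 and HSPA5 below the 10th. No ratio was computed for P4HB. For CANX the ratio was 0.162 when only clusters labelled 3'UTR alone were used, which leaves its large cluster out.

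These places depended on the lengths used. Over annotated 3'UTR and CDS lengths, PDIA6 had a ratio of 6.83 (7.27 ± 0.995, SD, n = 2) and CANX again 4.78. Over the 1240 genes with such a ratio the median was 3.59, the 10th percentile 0.87 and the 90th 9.39, so neither gene was past the 90th percentile. CANX was at percentile 64.2 and PDIA6 at 80.5. PDIA3, whose clusters covered little of its mRNA, turned from 0.988 to 1.97 (1.98 ± 0.00547). HSPA5 had 0.6 (0.561 ± 0.108), at percentile 6.45, and was the lowest member by both measures. By annotated lengths 8 of the 9 members lay above 1 and 3 above the median of all genes.

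**Figure D4:**
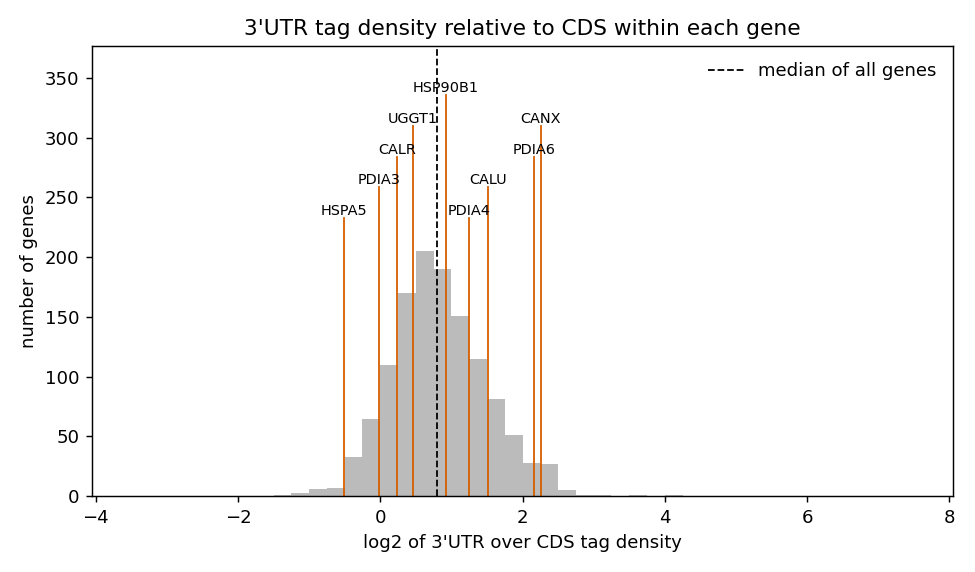
Log2 of the 3'UTR over CDS tag density for 1252 genes (grey bars, number of genes) with the 9 ER chaperone genes that have a ratio as labelled lines, whose heights only separate the names. Densities are per kb of cluster. CANX (ratio 4.78) and PDIA6 (4.46) lie in the upper tail, and HSPA5 (0.699) in the lower.

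The annotated 3'UTRs differed in T content from 24.2% in P4HB to 36.7% in HSP90B1, and CANX had 36.6%. Over all 5320 matched genes the median was 33.1%, and only CANX and HSP90B1 among the 10 were above it. Tags in clusters that included 3'UTR came to 7251 per kb of annotated 3'UTR in CANX, 1466 in PDIA6, 1458 in HSP90B1 and 1391 in CALU. They came to 656 in CALR, 500 in PDIA4, 203 in P4HB, 145 in UGGT1, 130 in PDIA3 and 84.5 in HSPA5. These values count whole clusters, so tags on coding bases of clusters labelled CDS and 3'UTR may be included. In HSP90B1 that cluster spanned 291 bases, beside an annotated 3'UTR of 264. By this measure the genes with more T in the 3'UTR had higher values (Spearman's rho 0.77 across the 10 genes). Over 1741 genes with at least 300 tags rho was only 0.162. These points share both libraries and the unmeasured RNA levels. The longest runs of T were in CALR (18 bases) and in HSPA5 and UGGT1 (17 bases each), and none of these genes was among the 4 with the highest 3'UTR density.

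The 2 libraries divided the members' tags in nearly the same way. Replicate 1 gave 18.6% to 22.0% of each member's tags, and 22.3% of all tags. The member shares come from clusters with 10 or more tags, and over all such clusters replicate 1 gave 21.1%. Against that sum 7 of the 10 genes had a lower value per 1000 tags in replicate 1, and CALR, PDIA3 and PDIA6 a higher one. The exact two-sided binomial test, adjusted over all genes by the Benjamini-Hochberg method, called only CANX, with 20.4% of tags from replicate 1 (95% Wilson interval 19.9% to 20.9%, adjusted p = 3.33e-07). The test called 1.52% of all genes. It compares the libraries, not conditions. CANX was not called with a test that allows extra spread between libraries, with the library sizes the study states, or with clusters of at least 10 tags. The study does not say which replicate each library size belongs to, and the smaller was taken here as replicate 1.

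By the same exact test over all clusters, 2 of the 214 were called, both in CANX, beside 0.0111% of all clusters. The large cluster had 20.6% of its tags from replicate 1 (exact binomial test, adjusted p = 8.11e-05). The coding cluster at chr5:179083261-179083387 had 10.2%, with 31 tags in replicate 1 and 274 in replicate 2 (exact binomial test, adjusted p = 0.000836). The large cluster was no longer called under 4 of 5 alternatives, and the coding cluster was lost under 1, the beta-binomial test.

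The genes whose tags were distributed over the location labels most like those of CANX were ELOVL5, ITM2B, APP, CCN1 and ADAM9. Likeness was the distance between the shares of tags in 14 location classes, over 650 genes with at least 1000 tags. The distances were 1.09, 1.92, 3.42, 6.92 and 8.11 percentage points, beside a median of 111. In ELOVL5, which extends fatty acids in the ER membrane, clusters labelled CDS and 3'UTR held 86.9% of tags as the mean of the replicates, beside 87.5% in CANX on the same scale. ITM2B and APP, membrane proteins that pass through the ER, held 87.7% and 85% there, also as means of the replicates.

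Other ER genes were counted by function, on lists written with earlier results of these data known. Of 95 genes, 65 had a cluster of at least 10 tags and 47 (49.5%) had more than 100 tags. The share of 39.9% given above counts only genes with a cluster, whereas the lists include genes with none. It is therefore not a matched share for these counts or for those of the single lists below. Whether any list stands above or below other genes was not tested. The translocon, which brings new proteins into the ER, had the most tags, 25544 over 12 genes. SSR1, a subunit of the translocon-associated complex, led with 11665. SSR3 had 4707 tags and TRAM1 4230.

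Among genes of the glycoprotein lectin cycle, to which CANX, CALR and UGGT1 belong, 6 of 13 passed 100 tags. LMAN1, a cargo receptor for glycoproteins, led with 7788. Of the genes for ER-associated degradation, 7 of 12 passed, led by SEL1L with 4076. Of the thiol oxidoreductases, which include relatives of the PDIA genes, 8 of 14 passed, led by TMX1 with 2652. Of the partners of BiP and GRP94, 6 of 14 passed, led by DNAJC3 with 3024.

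Of the unfolded protein response regulators, 5 of 12 passed 100 tags, led by PPP1R15B, which helps reverse the translation block, with 2483. Of the calcium-binding CREC proteins and KDEL receptors, relatives of CALU and retrievers of KDEL proteins, 4 of 7 passed, led by RCN1 with 1271. Of the proline enzymes and collagen chaperones, 4 of 11 passed, led by P4HA1, the catalytic partner of P4HB, with 323.

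The cell type was checked by tags, which are not expression. All 5 genes expected in a mesenchymal-like breast cancer line (VIM, CD44, EGFR, CAV1 and LGALS1) had tags, from 10 to 8404. Of 6 genes expected to be low (ESR1, PGR, CDH1, GATA3, KRT19 and EPCAM), only EPCAM had any, with 11. No marker of 5 other cell types had a cluster of at least 10 tags. The deposited columns summed to 999047 tags in replicate 1 and 3489697 in replicate 2. Nothing in the labels says whether the replicates came from separate cultures, so their spread may be technical.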

How the data were processed

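The authors crosslinked the cells, recovered RNA with an anti-Flag antibody, tailed it with poly(A) and primed cDNA with a degenerate barcode, by which amplified copies are counted once. They clustered tags on the Galaxy platform. The submitters' processing notes name Novoalign and hg18, with no version. The deposited counts are tags per cluster, for each replicate and in total, with location labels and gene symbols. Every cluster held at least 1 tag in each replicate and 5 in total, so column sums are not library depths. Coordinates are printed as listed, and whether they start at 0 or 1 is not known.

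The members and lists were chosen with earlier results of these data known. All 10 members are named, as are the leading gene of each list and the 5 highest over all lists, and the 5 genes most like CANX. The ratio of 3'UTR to CDS density, the CALU clusters of at least 500 tags and the T content were chosen after values were seen. Totals came from the authors' total, and replicate values from the replicate columns. Replicate tags exceeded the total in 26 member clusters, by 37 tags in all. Clusters of at least 10 tags were used, except in the binomial tests. The threshold was an adjusted p of 0.05. Intervals are at 95% and cover counting error only. Lengths and bases came from GENCODE 44 transcripts lifted to GRCh37, by symbol or gene ID (5320 of 5600 genes). The test was tried on simulated splits drawn without extra spread between libraries, so how it behaves under such spread was not tried. Python 3.11.15, pandas 2.3.3, NumPy 2.4.6, SciPy 1.17.1 and Matplotlib 3.10.9 were used.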

Additional observations from a re-analysis of the deposited data

How the results depend on the processing

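Of 47 alternative values, 24 moved by less than the spread between replicates (for counts, by at most 1.5 times), 22 moved further and 1 reversed. With a minimum of 30 tags a cluster, the CANX share of the members' tags was 67%, the share in clusters that included 3'UTR 83.9% and the CANX 3'UTR to CDS ratio 5.49. With only clusters labelled 3'UTR alone, the share was 18% and the CANX ratio reversed to 0.162. The intron share was 0.0852% with all deposited clusters and 2.52% with every label that includes intron. When the tags per kb of every single cluster were added up, CANX had 32.7% of the members' sum. That sum also grows with the number of clusters in a gene, so it differs from tags per kb of a gene's total cluster length. Without its largest cluster it had 3186 tags. Leaving out a replicate gave 5019 to 19740 CANX tags, a CANX share of 64.8% to 67.5%, a 3'UTR share of 81.7% to 85.9%, a CANX ratio of 4.73 to 5.58 and 6 to 10 members with more than 100 tags. The 6 came without replicate 2, the larger library, and with fewer tags by construction. Discordant clusters numbered 1 with the median ratio of the replicates, 1 with the library sizes the study states, 1 with clusters of at least 10 tags, 0 with the beta-binomial test (smallest adjusted p = 0.0649, unadjusted 3.34e-06) and 3 where replicate tags matched the total. Wherever 1 was called it was the CANX coding cluster with 31 and 274 tags, not the large one. Discordant genes numbered 2 (CANX and CALU), 0, 0, 0 and 1 under the median ratio, stated library sizes, clusters of at least 10 tags, beta-binomial test and matching sums. The cause was not tested. In 8 further members, annotated lengths kept the side of 1 except in PDIA3, which reversed to 1.97. The alternatives for the ratio, without largest clusters and for the denominator of tags per 1000 were chosen after seeing the data. No paired analysis was possible because the series has only 1 group. Replicate 1 had a median of 6 tags in a member cluster, and 22 member clusters had at most 2 there, so shares of single small clusters are imprecise.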
